A study of Homo sapiens with 6 samples.

Results

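The genes described here encode integrins, laminins and 8 glycoproteins of the extracellular matrix in HT1080, an established human fibrosarcoma cell line. They were chosen by symbol from the protein-coding genes: every integrin alpha chain (18 genes) and beta chain (8 genes), every laminin alpha, beta and gamma chain (12 genes), and FN1, TNC, THBS1, THBS2, SPARC, VTN, FBN1 and POSTN. That gave 46 genes of the 62710 in the table. The rule used no measured value, but earlier results of these data were known when the genes were chosen. HT1080 cells were left untreated or exposed to human IFNβ at 20 ng/mL for 24 h, and 3 libraries of bulk RNA were sequenced in each group. The labels give no other agent or allele, and both groups were the same single line. Human IFNβ is named in the labels and in the cell culture section of the study for this line, whereas its sequencing methods name mouse IFNβ. The study asked whether and through which proteins IFNβ drives ferroptosis, an iron-dependent cell death, and sequenced RNA to find the genes that respond.

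Integrins are cell surface receptors made of 1 alpha and 1 beta chain, and the pair decides which ligand is bound. Laminins are cross-shaped trimers of an alpha, a beta and a gamma chain that form the sheet-like core of basement membranes, while fibronectin, thrombospondins, tenascins and fibrillins belong to the looser matrix around mesenchymal cells. Inside the cell, talin, kindlin and other adaptors tie the beta tail to actin, and several alphaV integrins also release TGF-beta from its latent form. Fibrosarcoma cells are mesenchymal, and the untreated HT1080 libraries held RNA of fibronectin, SPARC and several laminin chains.

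Levels are FPKM, the fragments of a gene scaled by its length in kilobases and by the fragments of its library. By inference from the FPKM, the 6 libraries rested on 22848104 to 32915500 fragments. At that depth 1 fragment on a gene of 1 kb was worth 0.0304 to 0.0438 FPKM. The interferon check genes IFIT1, IFIT3, ISG15, MX1 and OAS1 rose, by 6.39 to 8.67 on the log2 scale. Of 5 mesenchymal markers, VIM (382 to 426 FPKM untreated, 320 to 334 with IFNβ) and CD44 were high, whereas THY1 was at or near 0 in all libraries. VIM (log2 change -0.29, limma adjusted p = 0.0031) and CD44 (-0.09, limma adjusted p = 0.0094) were called lower. NT5E was called higher, at 0.0967 to 0.106 FPKM untreated and 0.695 to 0.954 with IFNβ (log2 change 2.15, limma adjusted p = 0.00028). S100A4 was at 2.25 to 3.42 and 2.47 to 3.13 FPKM and was not called. The summed level of the 5 markers, carried mostly by VIM, was 483 to 527 FPKM untreated and 417 to 430 with IFNβ, and the part of these markers in the results was not tested. Leukocyte markers summed to 0.0734 to 0.299 FPKM untreated and 0.199 to 0.253 with IFNβ, with 4 of 5 under a mean of 0.1. Endothelial markers summed to 0.268 to 0.418 and 0.437 to 0.503, with 2 of 3 under that mean. Epithelial markers summed to 0.00720 to 0.0163 and 0.0267 to 0.0552, with 3 of 3 under it and EPCAM at 0 in every untreated library. In bulk RNA, fewer cells of a kind and less RNA per cell cannot be told apart. Nothing in the labels says that the libraries came from separate cultures, so p-values measure the spread between these libraries, which may be technical.

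IFNβ moved these genes in both directions, and mostly by little. THBS1 and LAMA3 more than doubled, LAMB2, LAMB1, FN1, ITGB8 and ITGA1 rose by less, and LAMB3, ITGA6, TNC and ITGB1 fell by under 1.5-fold. The comparison used limma on log2(FPKM + 0.1) over 20716 genes, those averaging 0.1 FPKM or more, with Benjamini-Hochberg adjustment over all of them. A gene is called higher or lower at an adjusted p under 0.05, and a DEG when its log2 fold change also reached 1 in size. On this scale the change of genes below about 1 FPKM is understated. Of the 46 genes, 33 were tested, and 13 stayed below the filter. Called genes numbered 19, with 13 higher and 6 lower, beside 32.7% of all genes tested. Over all genes, 15.2% were higher and 17.5% lower. Abundant genes were called more often throughout, and at an average of 1 FPKM or more 17 of 26 of these genes were called beside 49.4% of all such genes. The 2 DEGs, both higher, stand beside 4.22% of all genes tested (3.49% higher and 0.739% lower), a share near that background. The groups did not overlap for 25 of the 33, with 17 higher and 8 lower, beside 46.6% of all genes tested (22.3% higher and 24.3% lower). Their median log2 fold change was 0.14, against 0.00 over all genes tested, within a range of -0.33 to 1.09. One of the 33, ITGB6, passed the filter through the IFNβ group alone.

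**Figure D1:**
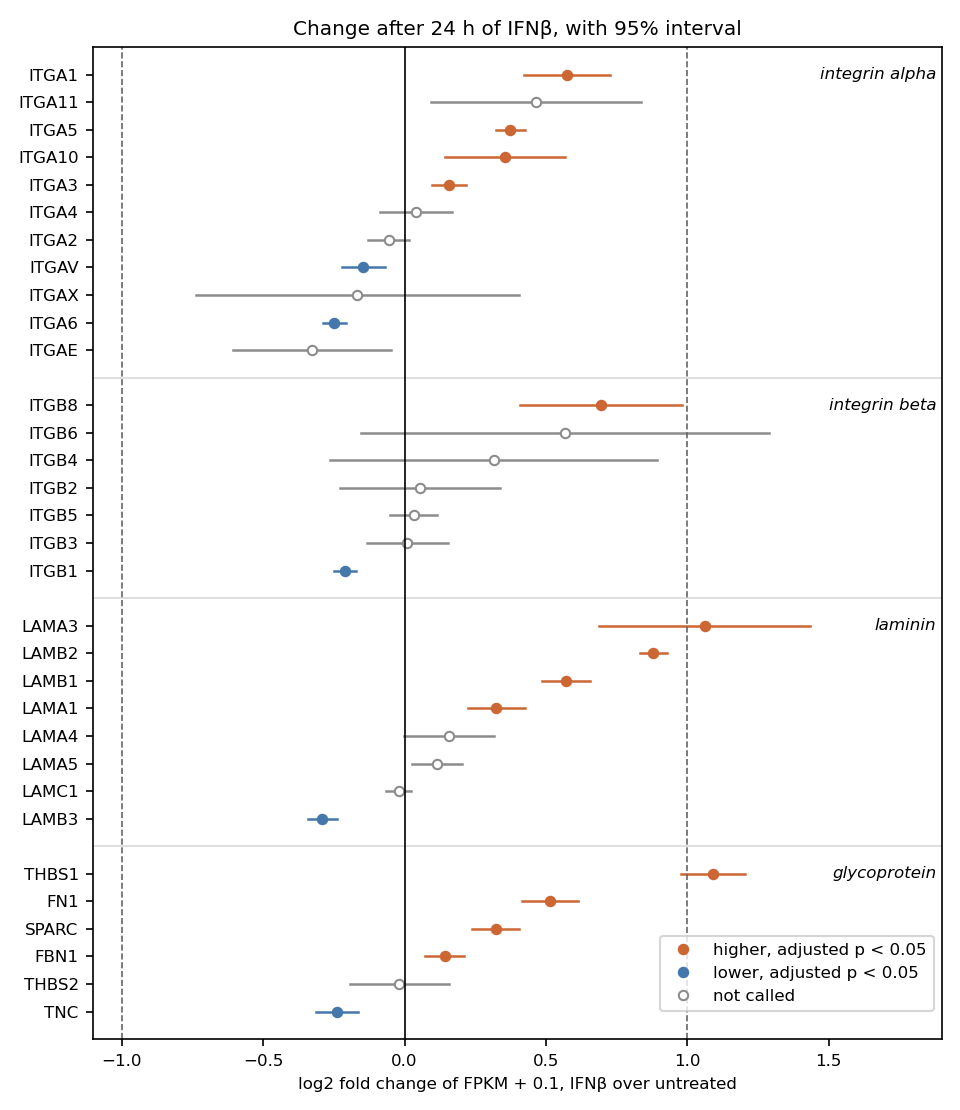
Log2 fold change of FPKM + 0.1 for 32 of the tested genes (horizontal axis, IFNβ over untreated), with 95% intervals of limma as lines and dashed lines at a log2 fold change of 1 in either direction. THBS1 and LAMA3 lie beyond the dashed line, no gene lies beyond it on the lower side, and 14 genes drawn as open points were not called.

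In untreated cells each family was led by a few abundant chains and ended in genes below the filter. SPARC, a collagen-binding glycoprotein, was the most abundant of the 46 at 267 ± 8.76 FPKM (SD, n = 3), and LAMB3 followed at 218 ± 0.649. Among integrin alpha chains the order was ITGA3, ITGA6, ITGA5, ITGA2 and, far lower, ITGAV. The ranges of ITGA5 and ITGA2 overlapped, while each of the others was separate from its neighbours. ITGB1 and ITGB5 led the beta chains, and ITGB3, the next, was at 2.08 ± 0.00714 FPKM. LAMB1 and LAMB2 overlapped, as did FN1 and THBS1. The levels depend on the length by which fragments were divided. For ITGB1 the table implies 14561 bases, against 6011 of exon in GENCODE release 29, and that length would give 249 in place of 103 FPKM. ITGAV would likewise be 28.6 in place of 12.1 FPKM, and LAMB1 37.4 in place of 16.4 FPKM. The order within each family was the same with either set of lengths. Across families ITGB1, at 249 FPKM, would pass LAMB3 at 216 and stay below SPARC at 256. Ratios between the group means of a single gene do not depend on the lengths, whereas family sums and their ratios do.

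The matrix glycoproteins include ligands of integrins. Of the 6 tested, 5 were called, beside 32.7% of all genes tested and 49.4% of those at 1 FPKM or more. THBS1 (ENSG00000137801, chr15:39581079-39599466, plus strand, GRCh38), thrombospondin 1, binds cells and collagen and activates latent TGF-beta. It was at 89.5, 79.2 and 80.6 FPKM in the untreated libraries and at 178, 175 and 177 FPKM with IFNβ. Every treated library was above every untreated one, and the 3 treated libraries lay closer together than the 3 untreated ones. The fold change was 2.13 in mean FPKM, or 1.09 ± 0.05 on the log2 scale (SE, limma adjusted p = 1.6e-05). Of its exonic bases, 9.38% lie opposite FSIP1 or AC037198.2 on the other strand, and whether the counting used strand is not given in the sources used here.

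The 250 bases before the RefSeq start site of THBS1 (GRCh38.p14, chr15:39580829-39581078, plus strand) are shown because THBS1 had the largest change among the abundant genes described here. LAMA3, a scarce gene, had a larger ratio of means and, with a pseudocount of 0.01, a larger log2 change. Capitals mark a match to the letters TTCNNNGAA of the gamma-activated site (GAS), a motif of interferon-responsive genes, which begins 207 bases before the start.
THBS1: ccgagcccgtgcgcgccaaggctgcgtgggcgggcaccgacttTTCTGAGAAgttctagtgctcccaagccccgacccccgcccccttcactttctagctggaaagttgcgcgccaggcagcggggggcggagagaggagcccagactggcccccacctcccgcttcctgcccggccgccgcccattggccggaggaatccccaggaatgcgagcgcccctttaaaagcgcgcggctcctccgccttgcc
The window has a GC content of 69.6% and 24 CpG dinucleotides.

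FN1 (ENSG00000115414), fibronectin, is the main ligand of the ITGA5 and ITGB1 pair. Its levels were 88.1, 92.5 and 84.5 FPKM untreated and 121, 126 and 131 FPKM with IFNβ, without overlap. The log2 fold change was 0.51 ± 0.04 (SE, limma adjusted p = 0.00022), a 1.43-fold rise. SPARC was at 263, 277 and 261 FPKM untreated and at 321, 337 and 344 FPKM with IFNβ. It rose by 0.32 on the log2 scale (limma adjusted p = 0.00077), the groups again apart, and 7.89% of its exonic bases lie opposite CLMAT3. FBN1, fibrillin 1 of the elastic microfibrils, rose from 7.44 ± 0.0911 to 8.22 ± 0.166 FPKM (SD, n = 3 each), a log2 change of 0.14 with a limma adjusted p of 0.010.

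TNC, tenascin C, a glycoprotein of wounds and tumor stroma, was the only one of the 6 called lower. It was at 15.3, 15.8 and 14.8 FPKM untreated and at 13.2, 12.9 and 12.7 FPKM with IFNβ, a log2 change of -0.24 (limma adjusted p = 0.0016) with no overlap. THBS2, thrombospondin 2, is the closest relative of THBS1, and its levels were 11.6, 12.1 and 10.1 FPKM untreated and 10.6, 11.7 and 11 FPKM with IFNβ. These ranges overlapped, and the log2 fold change of -0.02 had a 95% interval of -0.19 to 0.16 (limma adjusted p = 0.89). The ratio of THBS1 to THBS2 was therefore 6.56 to 7.97 in untreated libraries and 15.0 to 16.9 with IFNβ. VTN and POSTN, vitronectin and periostin, had at most 10 fragments in any library and were not tested.

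Summed over the 8 glycoproteins, the level was 475, 484 and 458 FPKM untreated and 652, 671 and 684 FPKM with IFNβ, a ratio of 1.42. The 2-sided exact permutation p was 0.10, the smallest that 3 against 3 libraries allow. THBS1 made up 17.6% ± 1.24 of this sum untreated and 26.4% ± 0.724 with IFNβ (SD, n = 3), and SPARC 56.5% ± 0.975 and 49.9% ± 0.581.

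Laminin beta chains moved apart, with LAMB2 and LAMB1 called higher and LAMB3 called lower. The 4 alpha chains tested all had positive log2 changes, of 0.11 to 1.06. Of the 9 laminin genes tested, 4 were called higher, beside 15.2% of all genes tested. Most of the 9 were abundant, and of all genes at 1 FPKM or more 49.4% were called in either direction. LAMB2 (ENSG00000172037, chr3:49121114-49133118, minus strand), the beta chain of mature vascular and synaptic basement membranes, had the clearest rise. It was at 15.8, 15.7 and 15.5 FPKM untreated and at 29.2, 28.9 and 28.6 FPKM with IFNβ. The log2 fold change was 0.88 ± 0.02 (SE, limma adjusted p = 7.6e-07), a 1.84-fold rise. LAMB1 (ENSG00000091136), the other widely expressed beta chain, rose from 16.3, 17.1 and 15.7 FPKM to 24.2, 24.6 and 24.2 FPKM, by 0.57 on the log2 scale (limma adjusted p = 7.5e-05). LAMB3 (ENSG00000196878, chr1:209614870-209652466, minus strand), a beta chain otherwise known from epithelia, went the other way. Its levels were 219, 218 and 218 FPKM untreated and 183, 178 and 174 FPKM with IFNβ, a log2 change of -0.29 ± 0.02 (SE, limma adjusted p = 0.00015). None of these 3 genes overlapped between groups.

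LAMB3 remained the most abundant beta chain, but its share of the summed beta chain FPKM was 87.2% ± 0.284 untreated and 77.0% ± 0.335 with IFNβ (SD, n = 3). The share of LAMB2 was 6.26% ± 0.0359 and 12.5% ± 0.112, and that of LAMB1 6.54% ± 0.266 and 10.5% ± 0.238. Within a library there were 13.8 to 14.1 times as many FPKM of LAMB3 as of LAMB2 untreated, and 6.10 to 6.26 times with IFNβ. With the exon length of GENCODE release 29 LAMB1 would take a larger share in both groups, and the summed level given next would be higher. The summed level of the beta chains was 249 to 251 FPKM untreated and 227 to 236 FPKM with IFNβ (exact permutation p = 0.10, 2-sided, the smallest possible).

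**Figure D2:**
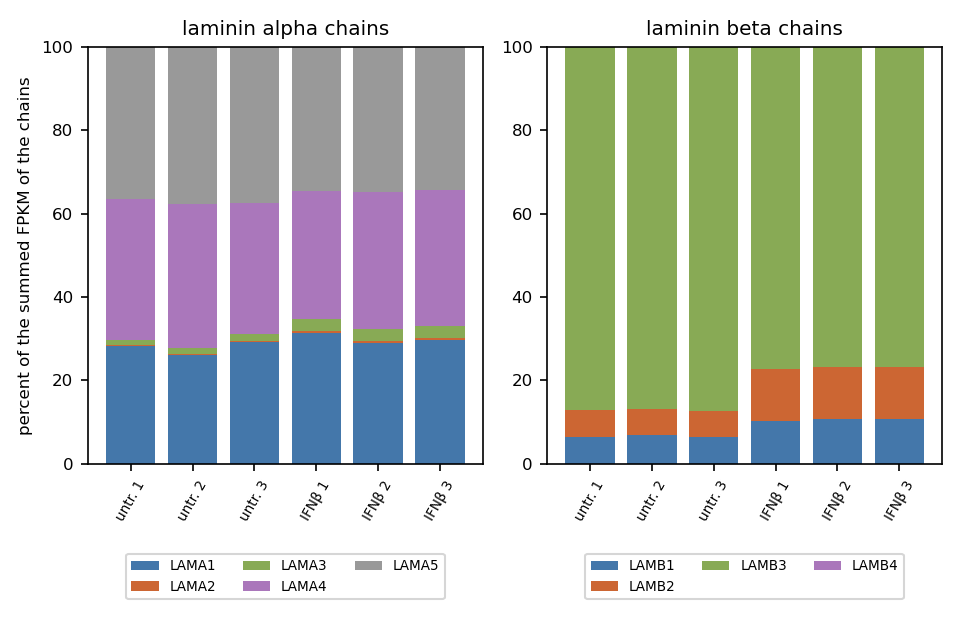
Share of each laminin chain in the summed FPKM of the alpha or beta chains (vertical axis, percent), with 1 bar per library, 3 untreated and 3 with IFNβ. LAMB1 and LAMB2 take a larger part of the beta chains in all 3 treated libraries, and LAMB3 a smaller part.

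LAMA3 (ENSG00000053747, chr18:23689443-23956222, plus strand) encodes the alpha chain that pairs with the LAMB3 product in the anchoring laminin of skin. It was at 0.202, 0.235 and 0.264 FPKM untreated, from 67, 101 and 126 fragments, and at 0.583, 0.600 and 0.602 FPKM with IFNβ, from 260, 217 and 252 fragments. The groups lay well apart, at a 2.54-fold ratio of means and a log2 fold change of 1.06 ± 0.15 (SE, limma adjusted p = 0.0027). The call as higher held in every setting that tested the gene, but the DEG threshold did not. Without untreated replicate 1 the log2 fold change was 0.99, under quantile normalization 0.92, and with a pseudocount of 1 it was 0.37. In this pair the scarce alpha chain thus rose while the abundant beta chain fell. The level of LAMB3 was 823 to 1081 times that of LAMA3 in untreated libraries and 290 to 314 times with IFNβ. These ratios divide LAMA3 by the whole 14488 bases in the table, and a shorter transcript would have a higher level.

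LAMA1, the alpha chain of early embryonic basement membranes, rose from 4.86 ± 0.168 to 6.12 ± 0.199 FPKM (SD, n = 3), by 0.33 on the log2 scale (limma adjusted p = 0.0017). LAMA5 and LAMA4 are the alpha chains of most adult and of vascular basement membranes. LAMA5 was at 6.41, 6.74 and 6.37 FPKM untreated and at 7.00, 7.23 and 6.93 FPKM with IFNβ, apart but with a limma adjusted p of 0.052. Without untreated replicate 2 its adjusted p was 0.035, so that LAMA5 sits at the threshold. LAMA4 overlapped between groups, at 5.85 ± 0.434 and 6.54 ± 0.339 FPKM (SD, limma adjusted p = 0.12). LAMA2, the chain of muscle, had 33 to 84 fragments per library and did not reach the filter. LAMC1, the gamma chain shared by most laminins, was at 91.5, 92.7 and 92.1 FPKM untreated and at 89.3, 91.1 and 92.3 FPKM with IFNβ. Its log2 fold change of -0.02 had a 95% interval of -0.06 to 0.02 (limma adjusted p = 0.47). LAMB4 and LAMC3 had at most 14 fragments in any library.

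Among the receptors, 8 of the 18 integrin genes tested were called (44.4%), beside 32.7% of all genes and 49.4% of those at 1 FPKM or more, and none was a DEG. Of the alpha chains 4 were higher and 2 lower, and of the beta chains 1 was higher and 1 lower.

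Among the alpha chains that bind the RGD motif of fibronectin, ITGA5 (ENSG00000161638), the fibronectin receptor chain, was at 99.4, 97.8 and 95.7 FPKM untreated and at 124, 128 and 127 FPKM with IFNβ. That was a log2 change of 0.37 ± 0.02 (SE, limma adjusted p = 5.5e-05), without overlap. ITGAV, which pairs with several beta chains and binds vitronectin and latent TGF-beta, moved the other way, from 12.4, 12.3 and 11.8 FPKM to 10.7, 11.3 and 10.9 FPKM. Its log2 change of -0.15 passed the test at a limma adjusted p of 0.014, and the call was lost at 0.0502 without IFNβ replicate 3. ITGA8 and ITGA2B, the chains of smooth muscle and platelets, had at most 10 fragments.

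The 2 abundant laminin-binding alpha chains also went in opposite directions. ITGA6 (ENSG00000091409) fell from 137, 136 and 137 FPKM to 114, 117 and 114 FPKM, a log2 change of -0.25 ± 0.02 (SE, limma adjusted p = 0.00011). ITGA3, which prefers laminins with the LAMA3 or LAMA5 product, was at 158, 159 and 155 FPKM untreated and at 170, 179 and 179 FPKM with IFNβ, a log2 change of 0.16 (limma adjusted p = 0.0036). Neither gene overlapped between groups, and in each library ITGA3 exceeded ITGA6 by a ratio of 1.14 to 1.17 untreated and 1.49 to 1.57 with IFNβ. ITGA5 was below ITGA6 in every untreated library, at ratios of 0.700 to 0.724, and above it in every treated library, at 1.09 to 1.12. For ITGA6, 5.37% of the exonic bases lie opposite other genes. ITGA7, the laminin receptor chain of muscle, had 12 to 25 fragments per library.

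Collagen-binding alpha chains covered a wide range of levels. ITGA2, the abundant one, was at 92.6, 98.3 and 91.6 FPKM untreated and at 89.4, 91.1 and 91.1 FPKM with IFNβ. The treated libraries were all lower, but the log2 fold change of -0.06 had a 95% interval of -0.13 to 0.02 (limma adjusted p = 0.21). ITGA1, its neighbour on chromosome 5, was far scarcer and rose from 1.22, 1.28 and 1.24 FPKM to 1.87, 1.95 and 1.89 FPKM, by 0.57 on the log2 scale (limma adjusted p = 0.00087) or 0.37 with a pseudocount of 1. PELO lies within the same locus and shares exonic bases with ITGA1 on the same strand. ITGA10, a chain of cartilage, was at 7.16, 8.41 and 6.79 FPKM untreated and at 8.86, 10.0 and 9.75 FPKM with IFNβ, apart but with the widest spread of the called alpha chains. Its log2 change of 0.36 had a limma adjusted p of 0.022, and without 1 library the call was lost. The adjusted p was then 0.073 without untreated replicate 1 and 0.070 without untreated replicate 3. It became 0.085 without IFNβ replicate 2 and 0.083 without IFNβ replicate 3. ITGA11, the fibroblast collagen receptor chain, had 68 to 159 fragments and did not pass (0.311 ± 0.0367 and 0.466 ± 0.0113 FPKM, limma adjusted p = 0.063).

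The remaining alpha chains were low. ITGA4, whose product binds VCAM1 and fibronectin, was at 3.11 ± 0.144 and 3.20 ± 0.0979 FPKM (SD, limma adjusted p = 0.61). ITGAE, known from T cells within epithelia, was at 1.54, 2.03 and 1.83 FPKM untreated and at 1.31, 1.51 and 1.40 FPKM with IFNβ. Its log2 change of -0.33 had a limma adjusted p of 0.076, and 0.028 without untreated replicate 1. ITGAX, of myeloid cells, overlapped between groups at 0.172 to 0.291 and 0.170 to 0.240 FPKM. ITGAL, ITGAM and ITGAD, the other leukocyte chains, and ITGA9 had at most 4 fragments in any library.

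Of the beta chains, ITGB1 (ENSG00000150093, chr10:32900319-33005792, minus strand), the partner of most alpha chains above, fell. Its levels were 104, 102 and 103 FPKM untreated and 88.2, 89.5 and 88.9 FPKM with IFNβ, a log2 change of -0.21 ± 0.02 (SE, limma adjusted p = 0.00017). ITGB5, a partner of ITGAV, was at 79.3, 82.2 and 76.3 FPKM untreated and at 78.4, 82.2 and 82.5 FPKM with IFNβ, with overlap and a log2 change of 0.03 (95% interval -0.05 to 0.11, limma adjusted p = 0.53). The share of ITGB1 in the summed beta chain FPKM was 55.5% ± 1.07 untreated and 51.1% ± 0.541 with IFNβ (SD, n = 3), and that of ITGB5 42.7% ± 1.03 and 46.6% ± 0.541. With the exon lengths of GENCODE release 29 the untreated levels would be 249 FPKM for ITGB1 and 80.1 FPKM for ITGB5, so that ITGB1 would take a larger share in both groups and the summed level would be higher.

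ITGB8 (ENSG00000105855), whose product pairs with the ITGAV chain to release TGF-beta, was the scarce chain that rose. It was at 0.482, 0.503 and 0.427 FPKM untreated and at 0.799, 0.813 and 0.852 FPKM with IFNβ, from 167 to 373 fragments. The log2 fold change was 0.69 ± 0.12 (SE, limma adjusted p = 0.0053), or 1.75-fold in mean FPKM, and 0.31 with a pseudocount of 1. ITGB6, the epithelial partner of ITGAV, rested on 8 to 40 fragments, at 0.113, 0.0932 and 0.0420 FPKM untreated and 0.225, 0.125 and 0.162 FPKM with IFNβ. Its limma adjusted p was 0.21, and 0.019 by limma-voom on the fragments. ITGB4, the hemidesmosome partner of ITGA6, had 14 to 37 fragments and was at 0.117 ± 0.0233 and 0.170 ± 0.0246 FPKM (SD, limma adjusted p = 0.38). ITGB3 and ITGB2, the platelet and leukocyte chains, differed by 0.01 and 0.06 on the log2 scale with limma adjusted p of 0.92 and 0.77. For ITGB3, 2266 exonic bases are shared with AC068234.1 on the same strand. ITGB7 had at most 2 fragments.

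Summed over their families, integrin alpha chains were at 513 ± 7.20 FPKM untreated and 536 ± 9.67 with IFNβ, and beta chains at 186 ± 2.55 and 174 ± 2.94 (SD, n = 3). Laminin alpha chains were at 17.5 ± 0.449 and 20.4 ± 0.330 FPKM. Each of these 3 sums was separate between the groups, with a 2-sided exact permutation p of 0.10, the smallest possible.

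Other genes of the pathway were read from 5 lists chosen by function, with earlier results of these data known. Their shares of called genes, 46.7% to 76.9% of those tested, stand beside 32.7% of all genes and 49.4% of genes at 1 FPKM or more. Of 29 adaptors that join integrins to actin, 26 were tested, 4 were higher and 11 lower, with a median log2 fold change of -0.09. PXN, paxillin, was at 43.6 FPKM untreated and 34.3 with IFNβ (-0.34), and PARVB, a parvin, at 4.01 and 3.29 (-0.28). Among the higher genes TNS3, a tensin, was at 10.7 and 13.1 FPKM (0.29) and SHARPIN, an integrin inhibitor, at 8.18 and 9.88 (0.27). Both DEGs of the list were scarce: PTK2B, a relative of focal adhesion kinase, at 0.188 and 0.571 FPKM (1.22) and TNS4 at 0.230 and 0.774 (1.44). With a pseudocount of 1 these log2 changes were 0.40 and 0.53, below the DEG threshold.

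Of 16 partners of laminins in the basement membrane, 15 were tested, 3 were higher and 4 lower, with a median of -0.05. AGRN, agrin, which binds laminin and dystroglycan, was at 62.2, 62.5 and 60.5 FPKM untreated and at 117, 118 and 117 FPKM with IFNβ (log2 change 0.93, limma adjusted p = 4.8e-07). NID1, nidogen, the link between laminin and collagen IV, was at 21.6 to 22.6 FPKM untreated and 28.7 to 29.3 with IFNβ (0.40). The syndecans SDC2 and SDC4, heparan sulfate receptors of the cell surface, were lower, at 2.12 and 1.46 FPKM (-0.51) and at 42.8 and 32.5 FPKM (-0.40).

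Of 32 other matrix glycoproteins, 20 were tested, 6 were higher and 5 lower, with a median of 0.03. SMOC1, a relative of SPARC, was at 0.806 FPKM untreated and 1.65 with IFNβ (0.95), and FSTL1 at 30.8 and 36.7 (0.25). With a pseudocount of 1 the value for SMOC1 was 0.55. TGFBI, an integrin ligand, was at 6.58 and 3.63 FPKM (-0.84) and FBN2, the fetal fibrillin, at 4.18 and 2.72 (-0.60).

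Of 11 counter-receptors on other cells, 6 were tested, 2 were higher and 1 lower, with a median of 0.23. ICAM1, the ligand of leukocyte integrins, was the single DEG, at 0.114, 0.0880 and 0.220 FPKM untreated and 0.424, 0.464 and 0.371 with IFNβ (log2 change 1.14, limma adjusted p = 0.017). Its adjusted p was 0.054 without IFNβ replicate 1, 0.058 without IFNβ replicate 2 and 0.053 with the replicate number as a block, and its log2 change was 0.32 with a pseudocount of 1. ICAM2 was at 1.03 and 1.70 FPKM (0.68, or 0.41 with a pseudocount of 1) and JAM3 at 13.9 and 12.7 (-0.12).

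Of 14 TGF-beta genes, 13 were tested, 3 were higher and 7 lower, with a median of -0.18. TGFB2, a ligand, was at 1.53 FPKM untreated and 2.26 with IFNβ (0.53). PMEPA1 and SMAD7, feedback inhibitors of the pathway, were at 7.94 and 4.74 FPKM (-0.75) and at 4.40 and 2.79 FPKM (-0.64). All genes given as higher or lower in these lists passed the limma test over all genes.

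RefSeq promoter windows of 250 bases before the start site were held for 34 of the 46 genes, 11 of them among the 13 that rose. The 3 motifs below were searched on both strands after the values were known. The interferon-stimulated response element (ISRE), as a pair of GAAA with 2 bases between, was in 3.02% of 35116 promoter windows and in 1 of the 34, POSTN. GAS, as TTCNNNGAA, was in 6.57% of all windows and in 5 of the 34 (ITGAE, LAMB2, POSTN, THBS1 and VTN). AP-1, as TGANTCA, was in 6.57% of all windows and in 2 of the 34 (LAMA3 and POSTN). The matches in genes that rose are printed with 10 bases on either side, the match in capitals, since these genes were called higher.
THBS1: gcaccgacttTTCTGAGAAgttctagtgc
LAMB2: gttgcgctccTTCCCAGAAtccgctccgg
LAMA3 first: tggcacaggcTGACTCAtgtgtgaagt
LAMA3 second: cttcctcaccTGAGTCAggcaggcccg
In GRCh38.p14 these lie at chr15:39580862-39580890 (plus strand), chr3:49133081-49133109 (minus strand), chr18:23872885-23872911 and chr18:23872941-23872967 (plus strand). The LAMB2 match begins 49 bases before the RefSeq start, and the LAMA3 matches 125 and 69 bases before it. That LAMA3 start lies 183577 bases inside the gene from its 5′ end in GENCODE release 29, at a shorter transcript. A match of letters is a description of the window and not a binding site.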

How the data were processed

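RNA was measured in 6 HT1080 libraries, 3 untreated and 3 treated with IFNβ. The authors deposited FPKM for each Ensembl gene in each library, with no pooling of replicates. The submitters' processing notes name fastp, HISAT2, StringTie and GRCh38, without roles or versions, and the study names DESeq2. The annotation and use of strand are not given in the sources used here, and 4436 gene IDs are not in GENCODE release 29. Values could be written as whole multiples of 1 fragment for 100% of the 35303 genes above 0. The tolerance was 0.001 of a fragment plus a margin that grew with the fragment number. Genes above 0 in a single library met this by construction. The search ran to large fragment numbers, where the margin was wide, so genes above 0 in several libraries could also meet it by accident. The 100% is therefore no check on the recovery. Fragments so recovered summed to 99.99% to 100.13% of the number by which each library was divided. That number was itself inferred from the FPKM. A tolerance of the recovery was adjusted so that the sums came near 100%, so the sums are no separate check. Library pairs within a group differed by 1.80 to 3.41 chi-square per degree of freedom, more than counting error.

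Groups were compared with limma 3.58.1 (R 4.3.3; lmFit, eBayes with trend), without covariate, on log2(FPKM + 0.1) of those genes averaging 0.1 FPKM or more over the libraries, where the study used DESeq2 on counts. All adjusted p-values come from limma. Family sums were compared by exact permutation. Python (pandas 2.3.3, numpy 2.4.6, scipy 1.17.1, matplotlib 3.10.9) did the rest. Values in every library were given for DEGs, for genes with a mean of at least 10 FPKM and for the 5 largest rises and falls with a mean of at least 1 FPKM, and others were added after their values were seen. From each list of other genes, DEGs and the 2 largest rises and falls were named. The members and lists were chosen with earlier results of these data known. Alternatives were other pseudocounts, filters, scalings and thresholds, no trend, a block for the replicate number, omission of single libraries, and limma-voom on fragments. Levels with GENCODE exon lengths were added after seeing the data. The procedure was tested on simulated data under a pass rule relaxed after a first run. False calls there exceeded the nominal share, all of them in genes with few fragments. A few genes and values that need them are not reported here.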

Additional observations from a re-analysis of the deposited data

How the results depend on the processing

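Of the 19 genes called, 16 kept their direction and call in all of the 17 alternative settings that tested them. ITGA10 lost its call in 6, with adjusted p up to 0.085, and ITGAV in 3, up to 0.052. FBN1 lost it at the stricter threshold of 0.01. None of the 19 changed direction. Of the 14 genes not called, 4 gave the same result throughout and 6 were called in at least 1 setting (LAMA5, ITGAE, ITGA11, ITGA2, ITGB6 and LAMA4). The other 4 changed sign. Under quantile normalization ITGB2 was at -0.073, ITGB3 at -0.067 and LAMC1 at 0.015 on the log2 scale. Leaving out single libraries gave ITGB2 from -0.0055 to 0.10, ITGB3 from -0.024 to 0.042 and THBS2 from -0.093 to 0.034. The number of DEGs was 1 in place of 2 with a pseudocount of 1, with a mean FPKM of at least 1 (LAMA3 was then not tested) and under quantile normalization, 1 to 2 when a library was left out, and 3 with limma-voom on fragments, which adds ITGB6 (1.18, adjusted p = 0.019). Under quantile normalization the log2 ratio of summed integrin alpha chains was 0.10 in place of 0.06, and the cause was not tested. That setting moved the median of all genes most, to -0.06. Same-numbered libraries deviated with correlations of 0.014, 0.023 and 0.031, so the numbers were not taken as pairs. With the replicate number as a block, 13 of the genes were higher and 7 lower, and 6069 of all genes were called in place of 6778. Depth limits ITGB4, ITGB6 and ITGAX most: with at most 54 fragments in any library, they had the widest intervals.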
